A study of Mus musculus with 5 samples.

Results

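The genes of the cyclins, the cyclin-dependent kinases (CDKs), the CDK inhibitors, the CDC25 phosphatases and other Cdc proteins, and the E2F transcription factors were examined in lungs with allergic inflammation. They were taken by name, as every gene whose symbol starts with Ccn and a further letter, Cdk and a digit, Cdkn, Cdc and a digit, or E2f and a digit, leaving out the replication genes Cdc6, Cdc7 and Cdc45 and the names starting with Cdc42. The platform annotation named 69 such genes on 75 probes. Of these, 46 had a probe measured on 4 or 5 of the 5 arrays and were tested, out of 9715 genes tested in all. The other 23 were not tested: 9 had no value on any array and 14 had values on 1 to 3 arrays.

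The samples were lungs of 5 C3H mice, an inbred strain, after sensitisation and challenge with ovalbumin, an egg-white protein used as an allergen (ova mice). Each ova mouse was set on its own 2-colour array against 1 pool of lungs of control C3H mice, and all RNA had been amplified. The labels number the ova mice 1 to 5, 1 animal to an array. How many control mice were pooled, how old the mice were and when they were treated, the labels do not say.

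The deposited values are log ratios of the 2 channels, each array centred here on its median. Which channel was divided by which is not stated. Genes are therefore placed on the ratio's negative side (values under 0) or its positive side (values over 0), and no direction in the ova lung is given. Of 7 measured genes whose induction is typical of allergic lungs, 6 passed the threshold below 0 and 0 passed it above (6 and 0 at an unadjusted limma p under 0.05), with a median ratio of -3.48. The base of the logarithm was taken as 2, which is also not stated, so each fold is conditional on it. Each gene was tested against 0 with limma, with Benjamini-Hochberg adjustment over all genes and a threshold of 0.05. This test leaves out the spread among control mice, since the pool is 1 sample. In whole lung a difference in the number of cells of a type and a difference in RNA per cell cannot be told apart.

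Cells divide in an ordered cycle that CDKs drive once a cyclin has bound them. D cyclins with Cdk4 and Cdk6 act early in G1, E cyclins with Cdk2 at the entry into S phase, and A and B cyclins with Cdk1 in G2 and mitosis. CDC25 phosphatases switch CDK complexes on by removing inhibitory phosphates, whereas the Cip/Kip and INK4 proteins hold them off. E2F factors, held by the retinoblastoma protein until CDKs phosphorylate it, transcribe genes of S phase. Most cells of the adult lung are not dividing, and in allergic inflammation leukocytes, epithelium and other cells are known to proliferate. Several of the family's names cover other work, such as the cyclins and CDKs that act on RNA polymerase II.

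The promoters of 4 genes are shown because they belong to the 3 genes with the lowest mean ratios and to the 1 cyclin gene past the threshold on the other side. Each window runs from 250 bases before to 50 bases after the annotated start and was taken from RefSeq, assembly GRCm38.p6, in the gene's own 5′ to 3′ direction. The windows lie at chr10:69352863-69353162 for Cdk1 (minus strand), chr9:70421505-70421804 for Ccnb2 (minus strand), chr9:109875329-109875628 for Cdc25a (plus strand) and chr17:24251360-24251659 for Ccnf (minus strand). Capitals mark matches, on either strand, to the CCAAT box (CCAAT), to the cell cycle gene homology region CHR (TTTGAA) and to E2F words (TTTCCCGC, TTTCGCGC, TTTGGCGC or TTTGCCGC). No matches overlapped in these 4 windows.
Cdk1: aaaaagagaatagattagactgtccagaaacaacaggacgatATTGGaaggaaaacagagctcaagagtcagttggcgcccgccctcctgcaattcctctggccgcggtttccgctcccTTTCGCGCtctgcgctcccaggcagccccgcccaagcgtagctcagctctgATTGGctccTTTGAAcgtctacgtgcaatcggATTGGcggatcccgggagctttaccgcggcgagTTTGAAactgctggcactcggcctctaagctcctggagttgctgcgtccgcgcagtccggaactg
Ccnb2: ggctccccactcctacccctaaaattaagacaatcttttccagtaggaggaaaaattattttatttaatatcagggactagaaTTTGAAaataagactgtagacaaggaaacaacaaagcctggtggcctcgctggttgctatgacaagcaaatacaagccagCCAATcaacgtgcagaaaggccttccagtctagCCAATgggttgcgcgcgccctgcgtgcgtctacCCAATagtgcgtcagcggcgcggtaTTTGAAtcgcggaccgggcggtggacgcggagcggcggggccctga
Cdc25a: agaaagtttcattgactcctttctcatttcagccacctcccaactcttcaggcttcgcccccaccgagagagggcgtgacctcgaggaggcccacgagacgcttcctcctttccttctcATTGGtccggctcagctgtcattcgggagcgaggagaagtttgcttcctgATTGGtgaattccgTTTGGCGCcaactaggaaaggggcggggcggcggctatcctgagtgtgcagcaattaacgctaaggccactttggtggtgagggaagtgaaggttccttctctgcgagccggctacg
Ccnf: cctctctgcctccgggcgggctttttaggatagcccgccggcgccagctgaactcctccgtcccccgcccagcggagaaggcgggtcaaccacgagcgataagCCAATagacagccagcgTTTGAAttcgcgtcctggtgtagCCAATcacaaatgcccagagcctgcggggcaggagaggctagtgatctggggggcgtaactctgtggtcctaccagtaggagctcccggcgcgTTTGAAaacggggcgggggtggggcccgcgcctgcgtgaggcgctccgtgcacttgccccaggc

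The Cdk1 window held 3 CCAAT boxes, 2 CHR words and 1 E2F word. The Ccnb2 window had 3 CCAAT boxes, whose first bases lie 87, 54 and 21 bases before the start, and 2 CHR words. The Cdc25a window had 2 CCAAT boxes and 1 E2F word, 67 bases before the start. Ccnf, whose ratio lay on the other side, had 2 CCAAT boxes and 2 CHR words. Among all 32851 windows in the table, 37.4% held a CCAAT box, 17.9% a CHR word, 2.27% an E2F word and 6.95% both a CCAAT box and a CHR word. A window of 38 of the 46 tested genes was in the table, 44 windows in all. Of these 44, 45.5% held a CCAAT box, 15.9% a CHR word and 9.09% both, and 9.09% held an E2F word. The E2F words lay in windows of Cdk1, Cdc25a, Cdk2 and Cdkn2a, the last of which did not pass the threshold. The 4 genes with both in 1 window were Cdk1, Ccnb2, Ccnf and Cdk16, of which 2 were called below 0, 1 was called above it and 1 was not called. These matches are letters in a window and not measured binding.

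**Figure D1:**
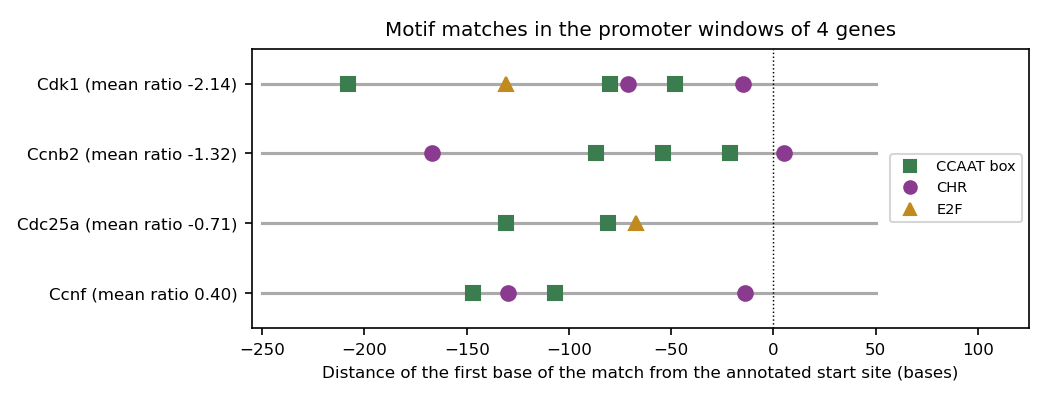
Matches to the CCAAT box (squares), CHR (circles) and E2F words (triangle) in the promoter windows of Cdk1, Ccnb2, Cdc25a and Ccnf, by distance in bases from the annotated start (dotted line). Cdk1, Ccnb2 and Ccnf each hold 2 CHR words, although the mean ratio is -2.14 for Cdk1, -1.32 for Ccnb2 and 0.40 for Ccnf.

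Of the 46 tested genes, 10 passed the threshold below 0 and 4 above it. Over all 9715 genes, 27.5% were past the threshold, 15.2% below 0 and 12.3% above it. The family's shares were 30.4% in all, 21.7% negative and 8.70% positive, so the family as named did not stand far from the background. The median ratio was -0.06 over the 46 genes and 0.00 over all genes. By size, Cdk1 and Ccnb2 were the only family members that passed limma's treat test against a minimum size of 0.5, which 0.772% of all genes passed. The roles most tied to the division cycle (its CDKs, cyclins, CDC25, inhibitors and E2F) held 9 of the 10 negative calls and 2 of the 4 positive ones among 22 genes, with a median of -0.13. The remaining roles held 1 and 2 among 24 genes, with a median of 0.03. They include the 2 tested genes of the anaphase-promoting complex, which also acts in the cycle and held 1 of these positive calls.

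**Figure D2:**
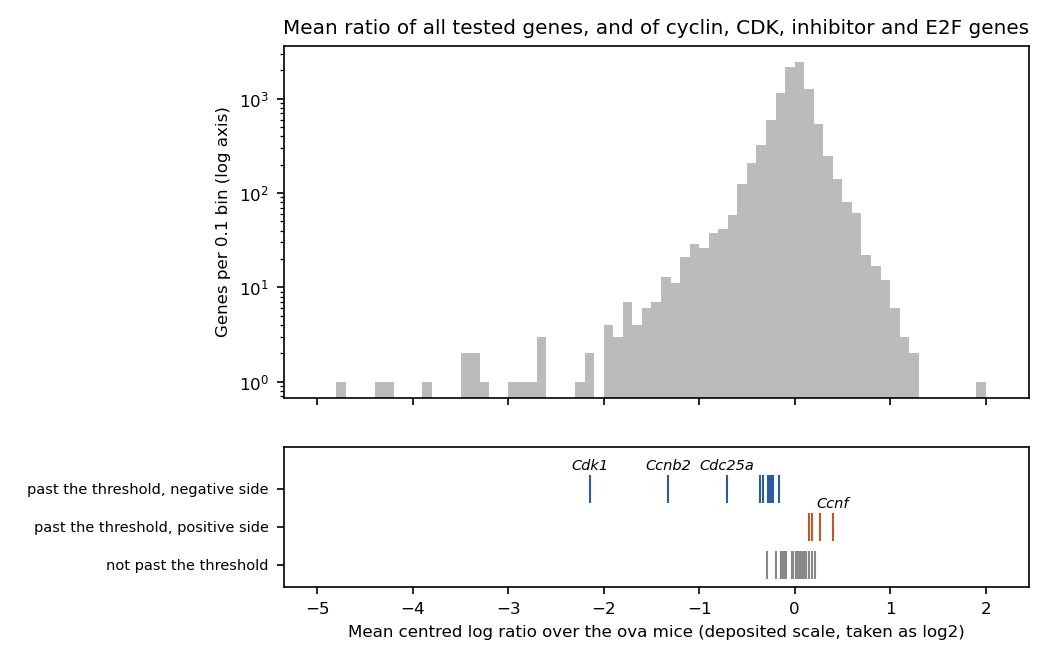
Histogram of the mean log ratio of all 9715 tested genes (log axis of counts) above the 46 cyclin, CDK, inhibitor and E2F genes, drawn as ticks in 3 rows by their test. Cdk1 (-2.14), Ccnb2 (-1.32) and Cdc25a (-0.71) stand in the negative tail, and most other ticks lie near 0.

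Among the CDKs of the cell cycle, Cdk1, the kinase of mitosis, had by far the lowest ratio. Its log ratios were -1.43, -2.64, -2.23, -1.85 and -2.57 in mice 1 to 5. Every mouse lay far below 0, mouse 1 least. The mean was -2.14 ± 0.51 (SD, n = 5; 4.41-fold if the base is 2; limma adjusted p = 0.000439), which ranked 18 from the most negative of all 9715 genes. Cdk2, the partner of E and A cyclins, had 0.00, -0.08, -0.43, -0.46 and -0.32. Only mice 3 to 5 stood clearly below 0, and the mean of -0.26 ± 0.21 had a limma adjusted p of 0.0427. Cdk6, a partner of D cyclins, had -0.11, -0.04, -0.33, -0.18 and -0.16, all small and below 0 (limma adjusted p = 0.0481). Cdk4, the other partner of D cyclins, had 0.04, -0.10, 0.05, 0.09 and 0.03, on both sides of 0 (limma adjusted p = 0.783). Within each mouse, Cdk1 minus Cdk4 was between -2.59 and -1.47, so the 2 kinases differed in every animal; the pair was chosen after the values were seen and was not tested. Cdk3 had values on 3 arrays only, -0.01, 0.17 and 0.03 in mice 2, 3 and 5.

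The cyclins of S phase, G2 and mitosis split. Ccnb2, encoding the mitotic cyclin B2 that activates Cdk1, had -0.81, -1.64, -1.40, -1.19 and -1.58 in mice 1 to 5. The order of the mice was the same as for Cdk1: mouse 1 closest to 0, then mice 4 and 3, with mice 5 and 2 farthest. Its mean was -1.32 ± 0.33 (n = 5; 2.50-fold if the base is 2; limma adjusted p = 0.000581), rank 57 from the most negative. Ccnf, encoding cyclin F, which binds no CDK and serves in a ubiquitin ligase that peaks in G2, lay on the other side with 0.21, 0.45, 0.45, 0.56 and 0.32. All mice were above 0, and the mean was 0.40 ± 0.14 (limma adjusted p = 0.00306). The difference Ccnb2 minus Ccnf was -1.72 ± 0.41 and lay between -2.09 and -1.02 over the 5 mice. This pair, too, was chosen after its values were seen. Ccna1, the cyclin A of the germ line, had -0.03, -0.06, -0.05, -0.02 and 0.10 (limma adjusted p = 0.856). Ccnb3, a meiotic B-type cyclin, had -0.21, -0.18, 0.06, -0.13 and -0.16 (limma adjusted p = 0.115). For both, the mice spread to either side of 0. Ccna2, the cyclin A of dividing body cells, was measured on 3 arrays only, with -0.04, -0.89 and -0.50 in mice 1, 2 and 5. It was not tested, and all 3 values lay below 0.

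The cyclins of G1 gave small ratios. Ccne1, encoding the S phase entry cyclin E1, had -0.42, -0.01, -0.32 and -0.57 in mice 2 to 5 and no value in mouse 1. Mouse 3 lay at 0 and the others below it, with a mean of -0.33 ± 0.24 (n = 4, limma adjusted p = 0.0365). Its probe lies 18 IDs from that of Tgtp1 (-1.06), and probes 6, 18 or 24 IDs apart that do not name the same gene correlated in mean ratio on these arrays, with r of 0.155, 0.108 and 0.107 across probes; its part in the ratio of Ccne1 was not tested. The sister gene Ccne2 had 0.08, -0.04, 0.47, -0.29 and 0.05 in mice 1 to 5, scattered about 0 (limma adjusted p = 0.727). Ccnd1, encoding the mitogen-induced cyclin D1, had 0.04, 0.14, 0.20 and 0.21 in mice 2 to 5, all above 0 but not past the threshold (limma adjusted p = 0.0905). Its probe lies 24 IDs from that of Fabp3 (1.26), whose part was not tested. Ccnd2 and Ccnd3 had no value on any array.

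**Figure D3:**
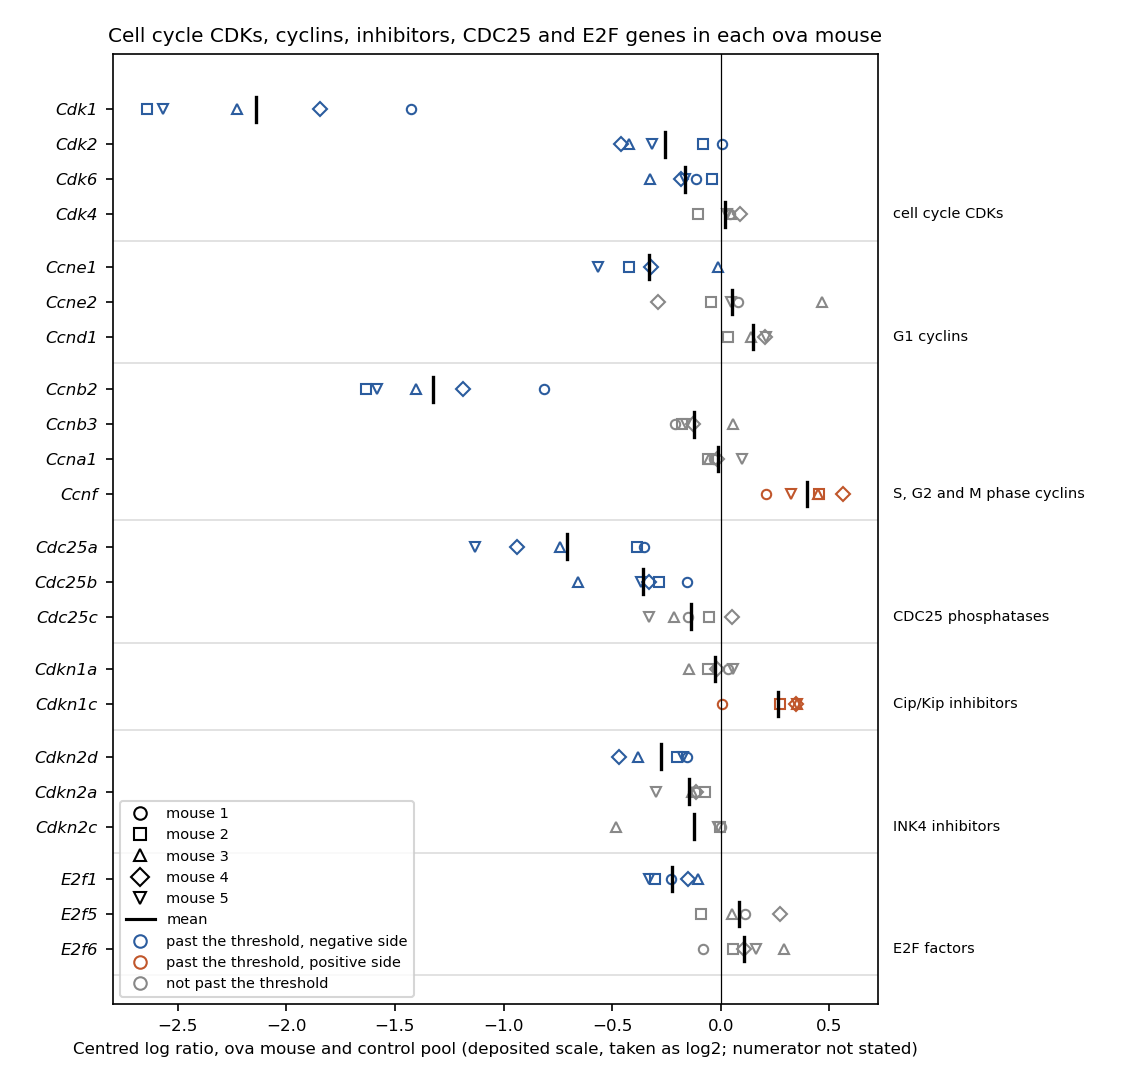
Log ratio of each tested gene of the division cycle in each ova mouse (symbols), with the mean over mice (black bar) and the colour giving the side past the threshold. Cdk1 lies between -2.64 and -1.43 and Ccnb2 between -1.64 and -0.81, whereas Ccnf lies between 0.21 and 0.56.

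Of the 3 CDC25 phosphatase genes, 2 passed the threshold on the negative side, where 15.2% of all genes did. Cdc25a, whose product acts on Cdk2 and Cdk1 from G1 onwards, had -0.35, -0.38, -0.74, -0.94 and -1.13 in mice 1 to 5. Mice 4 and 5 were the farthest from 0, unlike for Cdk1, where mouse 2 was. The mean was -0.71 ± 0.34 (n = 5, limma adjusted p = 0.00432). Cdc25b, which acts at the start of mitosis, had -0.15, -0.29, -0.66, -0.33 and -0.37 (mean -0.36 ± 0.19, limma adjusted p = 0.00906), again below 0 in every mouse. Cdc25c, the mitotic member, had -0.15, -0.05, -0.21, 0.05 and -0.33, and did not pass (limma adjusted p = 0.131).

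The inhibitors gave calls on both sides, all below 0.4 in size. Cdkn1c, encoding the Cip/Kip inhibitor p57, an imprinted gene of quiescent and differentiating cells, had 0.01, 0.27, 0.35, 0.35 and 0.35 in mice 1 to 5. Mouse 1 lay next to 0 and the other 4 together, and the mean was 0.26 ± 0.15 (n = 5, limma adjusted p = 0.0171). Its probe lies 24 IDs from that of Ms4a6d, whose mean of -2.12 is on the opposite side; the part of that neighbour was not tested. Cdkn1a, encoding p21, the target of p53, had 0.03, -0.06, -0.15, -0.02 and 0.06, around 0 (limma adjusted p = 0.711). Cdkn2d, encoding the INK4 inhibitor p19, had -0.15, -0.20, -0.38, -0.47 and -0.18, below 0 in every mouse (mean -0.28 ± 0.14, limma adjusted p = 0.0126). Cdkn2a, the locus of p16 and of the p53 regulator ARF, had -0.12, -0.08, -0.13, -0.11 and -0.30 and just missed the threshold (limma adjusted p = 0.0579). Cdkn2c, encoding p18, had 0.00, 0.00, -0.48 and -0.02 in mice 1, 2, 3 and 5, so its mean of -0.13 came from mouse 3 (limma adjusted p = 0.355). Its probe lies 24 IDs from that of Tff2 (-3.32), whose part was not tested. Cdkn1b and Cdkn2b had no value on any array.

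Of the E2F genes, E2f1, an activator of S phase genes and itself an E2F target, had -0.23, -0.30, -0.11, -0.15 and -0.33 in mice 1 to 5. All mice lay below 0, with a mean of -0.22 ± 0.10 (n = 5, limma adjusted p = 0.0147). The repressive members did not pass: E2f5 had 0.11, -0.09, 0.05 and 0.27 in mice 1 to 4 (limma adjusted p = 0.398), and E2f6 had -0.08, 0.06, 0.29, 0.11 and 0.16 in mice 1 to 5 (limma adjusted p = 0.218). The values of both lay on either side of 0. E2f3 had no value on any array.

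The remaining roles, many of whose genes work elsewhere, had means between -0.29 and 0.21. That range lay within the one of the division cycle roles (-2.14 to 0.40), and several genes of those roles were as close to 0. None of the 6 tested cyclins and CDKs of the RNA polymerase II machinery (Ccnc, Ccnh, Ccnl1, Ccnt2, Cdk11b and Cdk13) passed the threshold, whereas 2 had an unadjusted limma p under 0.05. Their means lay between -0.20 and 0.08. Over all genes 27.5% passed on either side, so a count of 0 says little in this small group or the next. None of the 5 other cyclins and partners (Ccng1, Ccni, Ccnq, Ccny and Ccndbp1) passed, with means between -0.29 and 0.12 and 3 unadjusted p-values under 0.05. Ccni had the widest spread of these, with -0.17, 0.17, -0.38, -0.80 and -0.26 in mice 1 to 5, and was called without mouse 2 (limma adjusted p = 0.0389). Among other CDKs and their partners, Cdk18, a kinase outside the division cycle, passed at 0.18 ± 0.11 (limma adjusted p = 0.0419), while Cdk5, the neuronal CDK, gave 0.04, Cdk16 0.21, Cdk2ap2 0.02 and Cdk5rap3 -0.13. Cdk18 was above 0 in 4 mice and at -0.01 in mouse 4.

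Only 2 of the family's genes for the anaphase-promoting complex, the ubiquitin ligase that destroys cyclin B, were tested; other subunits are described with the ubiquitin ligases. Cdc26 passed at 0.15 ± 0.06 (limma adjusted p = 0.0356), but its 2 probes differed, with means of 0.02 for the first and 0.29 for the second; with the first probe alone the call was lost (limma adjusted p = 0.788). Cdc16 had -0.11 and did not pass. Cdc20, the activator of the complex in mitosis, had a value in mouse 1 (-0.31) and mouse 4 (-0.65) only. Cdc27 had none. Of the remaining genes, Cdc123, which assists assembly of a translation factor, passed at -0.23 ± 0.16 (limma adjusted p = 0.0329). Cdc40 (0.11), Cdc37l1 (-0.15), Cdc14b (0.04), Cdkn2aip (0.18) and Cdkn2aipnl (-0.09) did not pass. Further genes with values on 1 to 3 arrays were Ccng2, Ccnt1, Cdc37, Cdc5l, Cdc73, Cdk7, Cdk14, Cdk20, Cdk5r1, Cdk5r2 and Cdkn3. Among them Ccng2 ran from -0.91 in mouse 2 to 0.04 in mouse 5; its probe lies 24 IDs from that of Aurkb (-1.08), whose part was not tested. Cdkn3, a phosphatase of CDKs, had 0.02 in mouse 2 and -0.15 in mouse 4. Ccnl2, Cdk9 and Cdk5rap1 had no value on any array.

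The calls differed in whether they held when a mouse was left out. Fewer arrays were then fitted, and calls over all genes fell from 2676 to between 1601 and 2573. A lost call therefore need not mean that the left-out mouse carried it. Cdk2, with a mean of -0.26 in all mice, had -0.30 without mouse 2 and -0.21 without mouse 3, and lost its call in both fits. Cdk1, Ccnb2, Cdc25a, Cdc25b and Ccnf kept theirs whichever mouse was left out, and Cdk1 then had means between -2.32 and -2.02 there. The calls of Cdk2 and Cdkn1c were lost without mouse 2, 3, 4 or 5, and those of Cdk6 and Cdc26 without any one of the 5 mice. Cdk18 lost its call without mouse 1, 2, 3 or 5, Ccne1 without mouse 2, 4 or 5, and Cdc123 without mouse 3, 4 or 5. E2f1 lost its call without mouse 2 or 5, and Cdkn2d without mouse 3. In these fits the number of negative calls in the family was 5 to 9 and of positive calls 1 to 3: it was 6 without mouse 3, 6 without mouse 4 and 5 without mouse 5 on the negative side, and 1 without mouse 2, 1 without mouse 3, 2 without mouse 4 and 1 without mouse 5 on the positive side.

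Mouse 1 had smaller ratios than the other mice for most of the family's called genes. Its probes had an SD of 0.200, against 0.322 to 0.382 on the other 4 arrays. For the 760 called genes with a mean past 0.5 in size over mice 2 to 5, mouse 1 reached a median share of 0.454 of it. The choice of genes by their size in mice 2 to 5 can by itself lower this share. Cdk1 (0.615) and Ccnb2 (0.561) were above 0.454 and Cdc25a (0.442) near it. Ccnf (0.467) was near it too, but its mean of 0.45 over mice 2 to 5 left it outside the 760 genes. Cdk2 (0.00) and Cdkn1c (0.01) were next to 0 in mouse 1, whereas E2f1 had nearly the same ratio in mouse 1 (-0.23) as in mice 2 to 5 (-0.22). Cdk18 (0.20 in mouse 1 and 0.17 in mice 2 to 5) and Cdc26 (0.25 and 0.13) were not smaller in mouse 1.

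**Figure D4:**
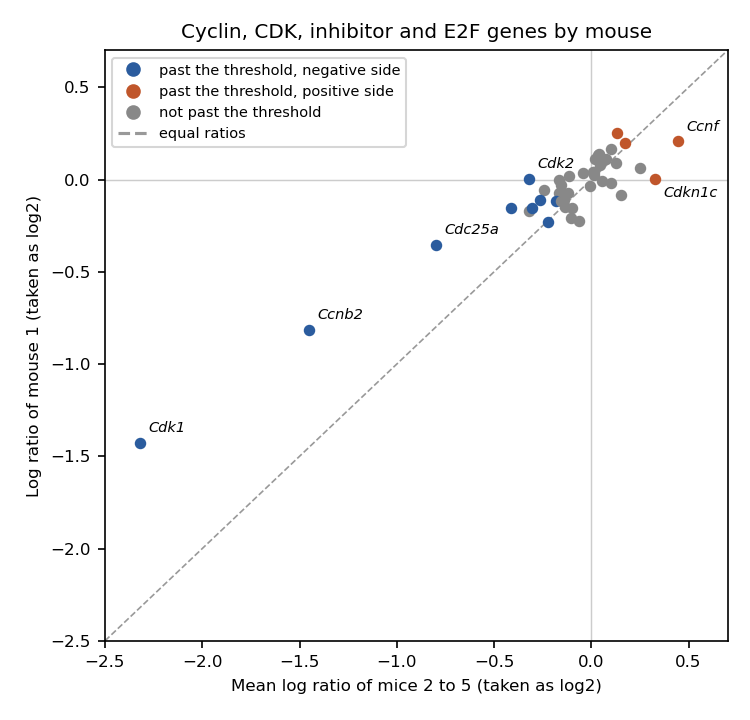
Log ratio in mouse 1 against the mean of mice 2 to 5 for the tested genes with a value in mouse 1; the dashed line marks equal ratios. Cdk1 lies at -1.43 in mouse 1 and -2.32 in mice 2 to 5, and Ccnb2 at -0.81 and -1.45.

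The other genes of the pathway were described from lists of regulators, partners and targets. Of 14 measured direct regulators of CDK activity, 5 passed the threshold below 0 and 2 above it, with a median of -0.05. Over all genes 15.2% passed below 0 and 12.3% above, so the positive count is near that share. Cks1b, the small subunit that binds Cdk1 and Cdk2, had -0.66, -1.62, -1.50, -1.13 and -1.36 in mice 1 to 5 (mean -1.25 ± 0.38, limma adjusted p = 0.000907). The mitotic kinase genes Aurka (-1.29 ± 0.30) and Aurkb (-1.08 ± 0.52) lay on the same side (limma adjusted p = 0.000529 and 0.00380), as did Plk1 (-0.27) with a smaller ratio. Aurka was tested only from probes 6, 18 or 24 IDs from a strong probe not naming it (mean beyond 1 in size), whose part was not tested. Cables1, a CDK-binding adaptor gene, and Plk2 were on the positive side at 0.42 and 0.33. Pkmyt1, an inhibitory kinase of Cdk1, gave 0.04.

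Of 15 ubiquitin ligase genes that act on cyclins and inhibitors, 5 were negative and 2 positive, with a median of -0.13; the positive count is again near the 12.3% of all genes. Ube2c, which carries ubiquitin to the anaphase-promoting complex, had -0.78, -1.26, -0.83, -1.27 and -1.28 in mice 1 to 5 (limma adjusted p = 0.000529). Fzr1, an activator of the complex (-0.53 ± 0.08), and Fbxo5, its inhibitor (-0.51 ± 0.19), lay together on the negative side. Of 5 further subunits of the complex, Anapc5 (-0.49) and Anapc1 (-0.23) were negative and Anapc16 (0.34) positive, while Anapc7 (-0.07) and Anapc10 (-0.13) did not pass. The calls of Anapc1 and Anapc16 were lost without mouse 2, 3, 4 or 5. Among 8 pocket protein, E2F partner and Myb genes, the 2 past the threshold were Myb (-0.87 ± 0.22), a transcription factor gene of immature blood cells, and Lin9 (-0.37 ± 0.16). Rb1, the retinoblastoma gene (-0.06), Rbl2 (-0.02) and the E2F partner gene Tfdp1 (-0.06) did not pass. Of 12 mitogen and Myc network genes, 2 were negative and 2 positive, near the shares of all genes (15.2% and 12.3%). Igf1 stood at -1.47 ± 0.56, Mycn at 0.34, a call lost without mouse 2, 3, 4 or 5, and Myc at 0.24, which did not pass.

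The list of E2F and proliferation targets had a median far from that of the family. Of 29 measured genes, 23 passed the threshold below 0 and 0 above it (24 and 0 at an unadjusted limma p under 0.05). Over all genes, 15.2% passed below 0 and 12.3% above. The median of the list was -0.61, against -0.06 for the cyclin, CDK, inhibitor and E2F genes. Kif23, a mitotic kinesin gene and the lowest of the list, stood at -1.68 ± 0.39. Bub1b, of the spindle checkpoint, stood at -1.23 ± 0.38 and Gmnn, an inhibitor of replication licensing, at -1.05 ± 0.44. Gmnn was tested only from probes 6, 18 or 24 IDs from a strong probe not naming it (mean beyond 1 in size), whose part was not tested. The 6 genes that did not pass were Top2a (-0.39), Mki67 (-0.20), Cdc7 (-0.12), Kif11 (-0.07), Tmpo (-0.07) and Kif2c (0.03). The average ratio of this list was -0.32, -0.82, -0.70, -0.60 and -0.85 in mice 1 to 5, with mouse 1 closest to 0 and mice 2 and 5 farthest, as for Cdk1. These genes and the family were measured on the same arrays against the same pool, and the difference between the lists was not tested.

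**Figure D5:**
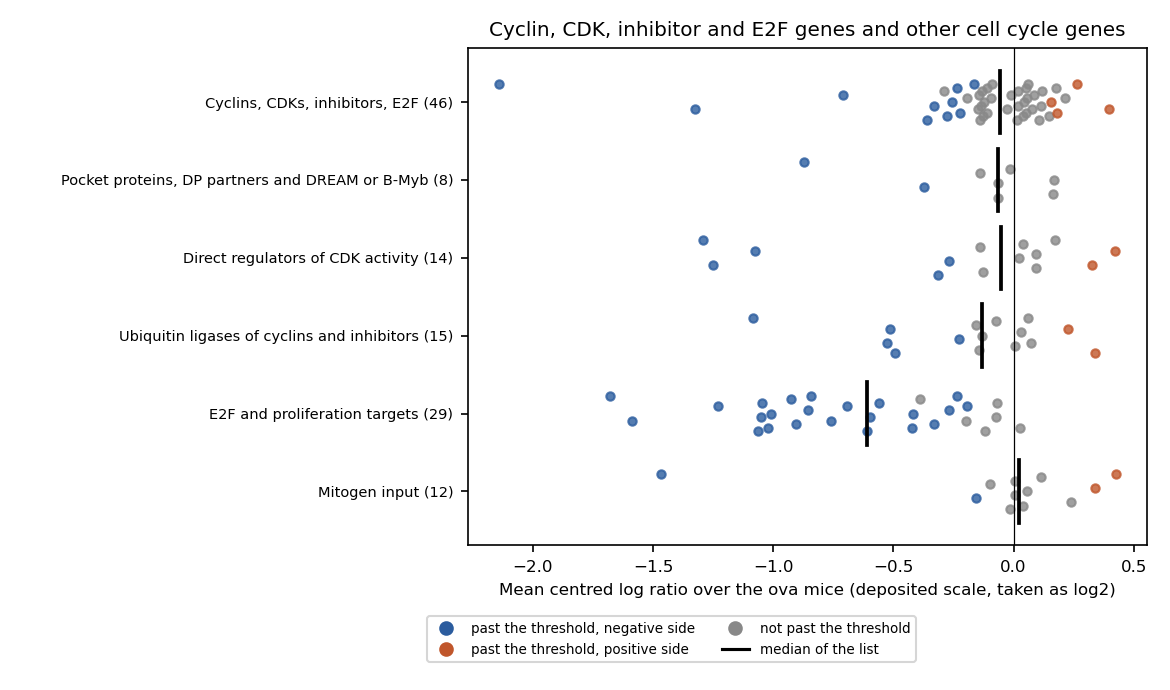
Mean log ratio of each tested gene in the family and in 5 lists of other cell cycle genes, with the number of genes in brackets, the median of each list as a bar and the colour giving the side past the threshold. The median is -0.06 for the family and -0.61 for the E2F and proliferation targets, the only one of these lists with a median beyond 0.2 in size.

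Markers of several leukocytes were called on the same side as Cdk1 and Ccnb2, those of macrophages and neutrophils most and those of T cells no more often than all genes (15.2%). Of the measured markers, 4 of 5 for macrophages, 4 of 4 for neutrophils, 4 of 7 for B and plasma cells, 3 of 5 for eosinophils and 1 of 7 for T cells passed the threshold on the negative side. The eosinophil marker Siglecf was called on the positive side (0.30), a call lost without mouse 1, 2, 3 or 5. The mean ratio of the macrophage markers was between -1.40 and -0.31 over the mice and that of the neutrophil markers between -1.41 and -0.50, both closest to 0 in mouse 1. The mouse means ran from -1.41 to -0.72 for eosinophils, from -0.46 to -0.02 for B and plasma cells and from -0.25 to 0.07 for T cells. Among the eosinophil markers, Rnase2a stood far from the rest at -4.23 and was also among the genes typical of allergic lungs. The others were Alox15 (-0.96), Ccr3 (-0.39), Prg2 (-0.14) and Siglecf (0.30), and the median of the list was -0.39. Goblet and club cell markers gave 5 negative calls and 1 positive call of 7. The negative ones include Clca1 (-4.33) and Muc5ac (-3.00), which were also among the genes typical of allergic lungs. Over all genes, 12.3% passed on the positive side. The list for immature lymphocytes and thymus gave 0 negative and 2 positive calls of 3 in limma (0 and 2 at an unadjusted p under 0.05). Cd1d1 (0.35) and Vpreb3 (0.32) were called, whereas Dntt (0.09) was not. Markers of endothelium gave 0 negative and 4 positive calls of 5 (0 and 4 unadjusted). Alveolar type 1 markers gave 0 negative and 5 positive calls of 6 in limma (0 and 6 unadjusted), alveolar type 2 markers 1 and 2 of 4, and heart muscle markers 0 and 2 of 5 (0 and 4 unadjusted). The 1 fat marker, Adipoq, stood at 1.11, and neither of the 2 erythroid markers was called in limma (0 at an unadjusted p under 0.05). Alveolar type 2 markers lay on both sides, with Sftpc at 0.67, Napsa at 0.21, Sftpa1 at -0.05 and Sftpd at -0.47. Of the club cell markers, Scgb1a1 stood at 0.70 and Scgb3a1 at 0.03. The calls of Napsa and Sftpd were lost without single mice (Napsa without mouse 1, 2, 3 or 5 and Sftpd without mouse 2, 3 or 4). Ratios give no level, so no marker can be called present or absent. The part of these cells in the ratios of the cell cycle genes was not tested.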

How the data were processed

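The deposited table holds log ratios of 17280 probes on 5 arrays, with 11778 to 13320 values on an array. What the authors did before they deposited these values, taken here as log2 ratios, is not stated in the labels or headers, nor are the dyes, the numerator and the log base. Base 10 is unlikely, since sizes reach 5.17 and the raw intensities of a 16-bit scan span 4.82 on that scale. Processing before deposit could widen that span, so base 10 is not excluded. Array medians were -0.015 to 0.008 and were subtracted. Arrays correlated between 0.643 and 0.830 across probes (10 pairs) and shared 9 to 36 identical values, so none was a copy. Spot brightness and background were not used here, and the number of arrays limits the precision.

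Gene names came from GEO's platform annotation (14722 probes with 1 symbol, 1 with several, 2557 with none). All 69 family symbols matched the gene table of assembly GRCm38.p6. Probes with values on at least 4 arrays (10456 with 1 symbol) were averaged per gene and array, giving 9715 genes, tested two-sided by lmFit and eBayes of limma 3.58.1 (R 4.3.3). The smallest p of an exact two-sided sign test over 5 arrays is 0.0625. On simulated data for 9715 genes, with 200 shifted in each of 10 runs, the fit recovered 97.8% of shifts of 1 and 38.3% of shifts of 0.3, with 5.69% and 2.79% of calls false. The simulated noise was independent between genes and equal in spread on every array, and far fewer genes were shifted than the 27.5% called here. These shares therefore need not hold for the data.

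The family, the lists and the roles were chosen with earlier results of these data known. Within the family, values by mouse are given for every gene of the division cycle roles and every other call of at least 0.3 in size. Other family genes and the genes of the lists are given by mean or range, and those with values by mouse outside this rule (Ccni, Cdk18, Cks1b, Ube2c, Cdc20, Ccng2, Cdkn3) were chosen after their values were seen.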

Additional observations from a re-analysis of the deposited data

Results flagged for a closer look

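In groups of 4 or 5 mice, 1 mouse stood apart from the rest by Dixon's test in 6 of 46 genes. Chance alone flags about 1 in 20 such groups. Ccna1 had 0.10 in mouse 5, against -0.06 to -0.02 in the others. Cdc37l1 had -0.51 in mouse 4, against -0.10 to -0.02 in the others. Cdk11b had 0.31 in mouse 4 and -0.02 to 0.05 elsewhere. Cdkn1c had 0.005 in mouse 1, against 0.27 to 0.35 in mice 2 to 5. Cdkn2a had -0.30 in mouse 5 and -0.13 to -0.08 elsewhere. Cdkn2c had -0.48 in mouse 3, against -0.02 to 0.00 in the 3 other mice that measured it.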

How the results depend on the processing

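Results were recomputed under 16 alternatives and with limma's treat, 1 of them chosen after seeing the data (averaging all probes of a gene before the filter, 2656 calls over all genes and 10 and 4 in the family). Of 725 values of the 46 family genes, 683 kept their side of the threshold, 35 lost a call, 7 gained one and 0 reversed as a call. Of 538 values of 34 other named genes, 512 kept theirs, 26 lost a call and 0 gained one. Apart from left-out mice, family genes that were still tested lost calls as follows. Cdk6 did so without centring (limma adjusted p = 0.0529) or with a trend in the variance (0.0539), and Cdc26 with quantile normalization (0.0557) or the first probe (0.788). Genes no longer tested were not counted as lost. Without probes near a strong probe, Ccne1 and Cdkn1c were not tested, and the family had 9 negative and 3 positive calls among 42 genes. With values on all 5 arrays, Ccne1 was not tested either. Cdkn2a gained a call with scaled arrays (0.0443) or quantile normalization (0.0407), Cdk16 with scaled arrays (0.0368), quantile normalization (0.0374), a trend (0.0317) or without mouse 1 (0.0479), and Ccni without mouse 2 (0.0389). Among other genes, Adipoq lost its call with a trend (0.108), and Napsa without centring or with values on at least 3 arrays. Leaving out a mouse gave 1601 to 2573 calls over all genes, 5 to 9 negative and 1 to 3 positive calls in the family and family medians of -0.0525 to -0.0249. Fewer arrays were then fitted, and probes needed values on 3. The family median was -0.0896 with values on all 5 arrays and -0.027 with values on at least 3, where other genes were tested. Against a minimum size of 0.5, limma's treat called 75 genes, of which 2 were negative and 0 positive in the family (0 positive at an unadjusted p under 0.05). No paired analysis was possible because the series holds 1 group. Without brightness values, faint spots could be known only where left blank.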
